A study of Mus musculus with 6 samples.

Results

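The EGF family of ligands and the ErbB receptors were described here in ribosome-bound RNA of lung pericytes, the mural cells of capillaries, with and without the transcriptional coregulators YAP1 and TAZ. The 10 genes were fixed by symbol, as 6 ligands (Hbegf, Areg, Ereg, Tgfa, Nrg1 and Nrg2) and 4 receptors (Egfr, Erbb2, Erbb3 and Erbb4), and all 10 were found among the 21603 genes of each sample. Lungs of C57BL/6 mice were taken at postnatal day 8, from 3 control mice and 3 Yap1,Wwtr1 iPCKO mice. Every mouse carried the Pdgfrb(BAC)-CreERT2 transgene and 1 floxed Rpl22 (RiboTag) allele, which puts a haemagglutinin (HA) tag on a ribosomal protein after recombination, and received tamoxifen from P0 to P2. Controls were labelled Yap1+/-;Wwtr1+/- and carried 1 floxed and 1 wild-type copy of each gene, so they were themselves Cre-positive heterozygotes, whereas mutants were Yap1-/-;Wwtr1-/- with both copies floxed. The Cre driver limits the model to cells that expressed Pdgfrb at the time of tamoxifen, and RNA from other cells that stays on the anti-HA beads is read along with theirs. Values are the authors' RPKM, read counts scaled to the exon length of the gene and to the size of the library, which allow levels to be compared between genes.

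ErbB receptors are receptor tyrosine kinases that work in pairs. EGFR binds amphiregulin (Areg), TGF-alpha (Tgfa), epiregulin (Ereg) and HB-EGF (Hbegf), the last 2 of which also bind ERBB4, while neuregulins (Nrg1, Nrg2) bind ERBB3 and ERBB4. ERBB2 has no known ligand and acts as the preferred partner of the others, and ERBB3 has little kinase activity and depends on its partner. The ligands are made as membrane proteins and released by proteases such as ADAM17, and in the lung the system is best known from the growth and repair of the epithelium. Areg is often used as a transcriptional target of YAP and TEAD.

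The deleted genes were read first. Yap1 had 13.2, 11.5 and 12.4 RPKM in controls 1 to 3 and 5.76, 5.83 and 5.25 RPKM in iPCKO samples 1 to 3, a log2 fold change of -1.12 (adjusted p = 0.00017, limma), whereas Wwtr1, which encodes TAZ, had 60.4 ± 9.48 and 62 ± 1.63 RPKM (SD, n = 3 per group). The files give 1 value per gene, so exons removed by Cre cannot be read apart from the others. Pdgfrb, the gene of the driver, lay at 1370 to 1670 RPKM in controls and 1190 to 1450 RPKM in mutants, and all 10 listed pericyte markers were measurable. Cspg4, which encodes the pericyte surface protein NG2, was higher in mutants, at 81.8 ± 5.28 against 170 ± 12.1 RPKM (log2 fold change 1.06, adjusted p = 0.00033, limma). Of the 10 pericyte markers 3 were called higher and 2 lower, the latter being Notch3 (-0.94, adjusted p = 0.0011) and Rgs5 (-1.15, adjusted p = 0.0078), chosen after their values were seen. Y-linked transcripts (Ddx3y, Uty, Kdm5d and Eif2s3y) summed to 35 RPKM in control 1 and 40.7 RPKM in control 3 and to less than 0.1 RPKM in control 2 and in every mutant. Among the Y-negative lungs control 2 is thus the 1 control. Leukocyte markers were higher in every mutant than in every control, with a summed level of 58.9 to 82.5 RPKM in controls and 151 to 270 RPKM in mutants (8 of 10 past the test), and so were neutrophil markers (83.4 to 122 against 440 to 4790 RPKM, 6 of 10 past the test). Over all tested genes 4.11% were called higher. No marker of either list was at 0 in all samples. The neutrophil marker Mmp9, named after its values were seen, had 0.645 to 0.924 RPKM in controls and 3.19 to 28.4 RPKM in mutants. It was tested only because of its level in the mutants. By mean log2 level every mutant also lay above every control for markers of platelets (difference 1.97), macrophages (1.44), airway epithelium (0.66) and mesothelium (0.46). The same held for smooth muscle (0.4), type 2 (0.27) and type 1 alveolar epithelium (0.16). Within the smooth muscle list the median log2 fold change was 0, with 3 of 6 genes positive and 2 called higher. Within the type 1 list it was 0.09, with 4 of 6 genes positive and 1 called higher. Markers of pericytes, endothelial cells, fibroblasts and Schwann cells overlapped between groups. The depth implied by the smallest steps of the RPKM values, in reads × 1e6, was 17.4 to 34.7 in controls and 14.3 to 39.6 in mutants.

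Of the family, Hbegf was highest in the control samples, at 43.6 ± 4.02 RPKM (SD, n = 3), followed by Erbb2 at 15.7 ± 0.485, Egfr at 7.2 ± 0.3 and Erbb3 at 2.56 ± 0.207 RPKM, and the ranges of these 4 genes did not touch. The other ligands lay below them. Areg (0.921 ± 0.291), Nrg2 (0.776 ± 0.141), and Nrg1 (0.692 ± 0.201) each overlapped with the next in order, down to Tgfa (0.462 ± 0.0781 RPKM), which lay apart from Ereg. Ereg (0.131 ± 0.0693) and Erbb4 (0.0721 ± 0.0164 RPKM) were lowest and overlapped with each other. In the mutants the first 4 places were the same, Nrg1 came next at 1.2 ± 0.202 RPKM, apart from Nrg2 at 0.726 ± 0.141 RPKM, and Areg at 0.394 ± 0.194 RPKM overlapped with Tgfa at 0.451 ± 0.0761 RPKM. By mean level over the 6 samples Hbegf lay at percentile 95.8 of all genes, Erbb2 at 80.1, Egfr at 67.5 and Erbb3 at 53.2.

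**Figure D1:**
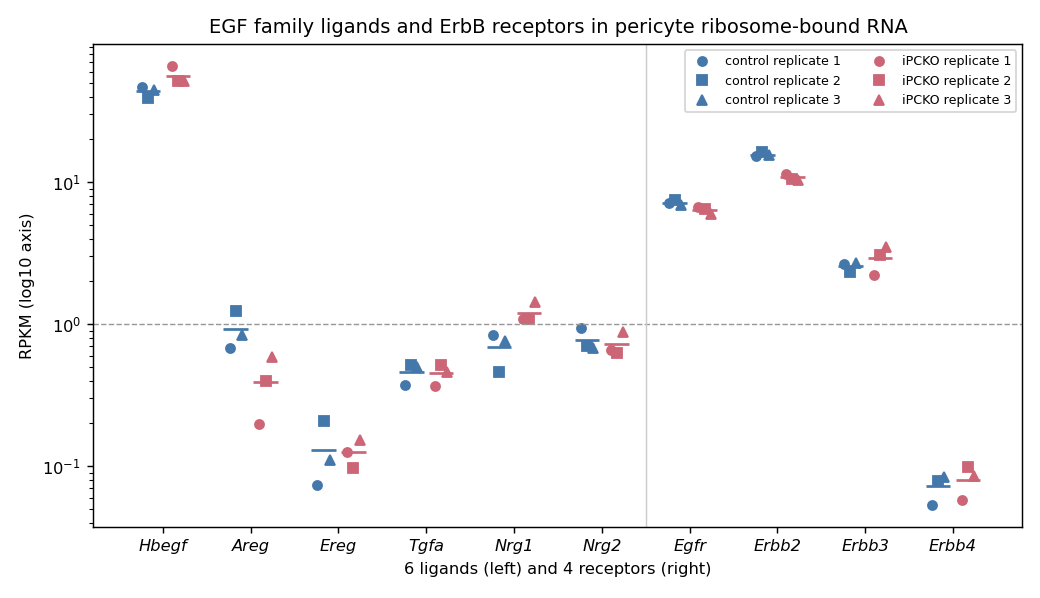
RPKM of the 10 genes on a log10 axis, with a point for each sample (controls blue, iPCKO red, 1 marker shape per replicate number) and a short bar at each group mean; the dashed line marks 1 RPKM. Hbegf (39.2 to 65.9 RPKM) lies far above the other ligands, and the red points of Erbb2 (10.4 to 11.4 RPKM) lie below its blue points (15.3 to 16.2 RPKM).

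The comparison of mutants with controls asks which transcripts on pericyte ribosomes depend on YAP1 and TAZ. It was made on log2(RPKM + 0.1) with limma for genes that reached 1 RPKM in 3 or more samples. A gene was called where its adjusted p was below 0.01 and its log2 fold change exceeded 0.5 in either direction. Of the 10 members, 5 passed this filter (Hbegf, Nrg1, Egfr, Erbb2 and Erbb3) and 5 did not (Areg, Ereg, Tgfa, Nrg2 and Erbb4). Nrg1 passed through the mutants alone, since all 3 mutants and no control reached 1 RPKM. Erbb2 was the 1 member called, and it was lower in mutants. Over all 12034 tested genes 6.79% were called, 2.68% lower and 4.11% higher, so the count of members alone does not set them apart. Groups of 3 did not overlap for 5 of the 10 members (Hbegf and Nrg1 above, Areg, Egfr and Erbb2 below the controls), against 30.3% of all genes detected in any sample (14.2% below and 16.1% above).

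**Figure D2:**
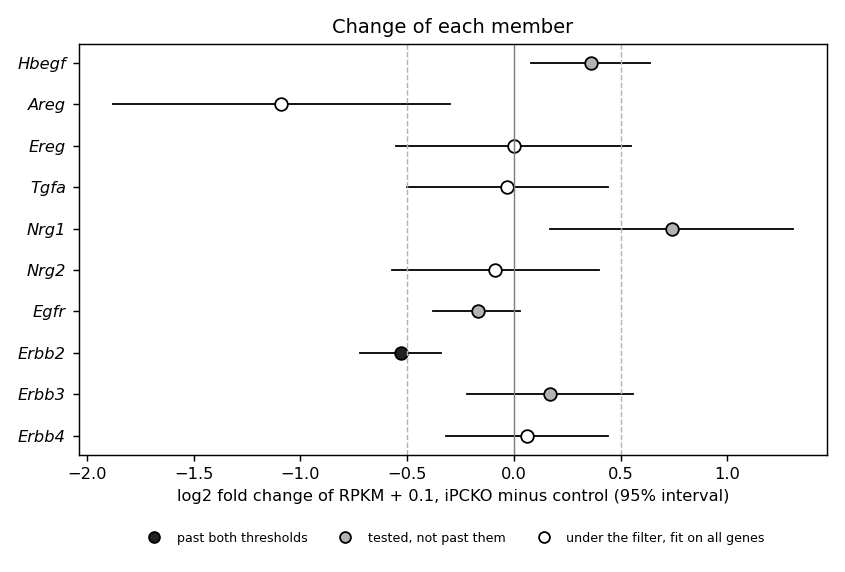
Log2 fold change of RPKM + 0.1 (iPCKO minus control) with its 95% limma interval for each member. Filled points are genes past the filter (black where called), open points are genes under the filter from the fit on all 17678 detected genes, and dashed lines mark 0.5. Erbb2 at -0.53 is the black point, and the intervals of Areg (-1.88 to -0.3), Nrg1 (0.17 to 1.31) and Hbegf (0.08 to 0.64) do not reach 0 before adjustment for the number of genes.

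Among the receptors, Erbb2 fell. Erbb2 (ENSMUSG00000062312, GRCm38, chr11:98412470-98437716, plus strand) had 15.3, 16.2 and 15.5 RPKM in controls and 11.4, 10.6 and 10.4 RPKM in mutants. The highest mutant lay well below the lowest control, and each group was tight, the highest control being 1.06 times the lowest. Mutants had on average 69% of the control level (log2 fold change -0.53, standard error 0.08, 95% interval -0.72 to -0.34, adjusted p = 0.0034, limma). The fold change lay close to the limit of 0.5, and the call was lost in 4 of the 6 fits with 1 sample left out. Leaving out control 2, control 3, iPCKO 2 or iPCKO 3 raised the adjusted p to between 0.016 and 0.022, while the fold change stayed between -0.57 and -0.51 over all 6. In a fit chosen after seeing the data, with the presence of Y-linked transcripts as a covariate, it was -0.58. All mutants are Y-negative, so this fit sets them against control 2 alone. Control 2, the Y-negative control, had the highest Erbb2 of all samples. With only 1 such control, the part of Y-linked status cannot be told apart from that of genotype. In these bulk samples fewer cells with the transcript and less of it per cell cannot be told apart. In the annotation 9 bases of Erbb2 overlap with Mien1 on the opposite strand.

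The promoter table of RefSeq (GRCm38.p6) held 5 of the 10 members, among them Erbb2, Egfr and Areg, with 250 bases before and 50 after the gene start. They were searched on both strands for the core letters bound by TEAD factors, the DNA-binding partners of YAP1 and TAZ (GGAATG), for an AP-1 site (TGANTCA) and for a cyclic AMP response element (TGACGTCA), and no matches overlapped. Among all 32851 promoters of this length 14.7% held GGAATG, 7.81% TGANTCA and 1.79% TGACGTCA. The promoters of the called receptor Erbb2, of the receptor Egfr, which was not called, and of the ligand Areg, a common YAP target, are given 5′ to 3′ with matches in capitals.
Erbb2 (chr11:98412234-98412533, plus strand): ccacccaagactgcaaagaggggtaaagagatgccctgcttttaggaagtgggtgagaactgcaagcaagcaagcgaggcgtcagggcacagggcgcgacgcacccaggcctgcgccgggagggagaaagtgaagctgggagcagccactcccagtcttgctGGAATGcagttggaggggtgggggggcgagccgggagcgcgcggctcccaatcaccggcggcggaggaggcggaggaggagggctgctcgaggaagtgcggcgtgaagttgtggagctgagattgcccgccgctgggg
Egfr (chr11:16751953-16752252, plus strand): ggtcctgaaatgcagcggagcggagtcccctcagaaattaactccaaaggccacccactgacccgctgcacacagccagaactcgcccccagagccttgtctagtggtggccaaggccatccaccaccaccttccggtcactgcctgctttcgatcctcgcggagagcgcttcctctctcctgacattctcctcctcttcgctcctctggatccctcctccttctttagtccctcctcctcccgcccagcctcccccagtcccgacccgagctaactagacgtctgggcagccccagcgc
Areg (chr5:91139349-91139648, plus strand): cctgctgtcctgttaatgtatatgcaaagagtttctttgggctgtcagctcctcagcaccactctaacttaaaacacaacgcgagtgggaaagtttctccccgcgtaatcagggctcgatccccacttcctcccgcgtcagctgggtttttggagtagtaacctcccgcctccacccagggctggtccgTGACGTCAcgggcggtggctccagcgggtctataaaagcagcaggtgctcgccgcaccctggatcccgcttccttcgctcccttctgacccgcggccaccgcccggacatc
Positions are counted from RefSeq's gene start, which for Erbb2 (98412484) lies 14 bases downstream of the GENCODE start given above. Erbb2 held 1 GGAATG, which began 88 bases before that start, and no match to the other letters, and Egfr held none of the 3. Areg held 1 TGACGTCA, which began 61 bases before the gene start, and no other match. Tgfa and Erbb4 also had no match in this window. A match is a description of the letters and no evidence of binding.

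Egfr (ENSMUSG00000020122, chr11:16752203-16918158, plus strand), the receptor of most ligands listed here, had 7.18, 7.5 and 6.9 RPKM in controls and 6.71, 6.43 and 6.01 RPKM in mutants. The groups did not overlap, but the gap between them was small, and the log2 fold change of -0.17 (95% interval -0.38 to 0.03, adjusted p = 0.24, limma) did not pass. Egfros, an antisense gene, overlaps Egfr. Erbb3 (ENSMUSG00000018166, chr10:128567523-128589652, minus strand), the neuregulin receptor that needs a partner, had 2.67, 2.33 and 2.7 RPKM in controls. In mutants it had 2.22, 3.08 and 3.52 RPKM, so that iPCKO 1 was the lowest and iPCKO 3 the highest of all 6 samples (log2 fold change 0.17, interval -0.22 to 0.56, adjusted p = 0.56, limma). Markers of type 2 alveolar epithelium, a tissue in which Erbb3 is well known, also lay higher in mutants (summed level 630 to 715 against 517 to 568 RPKM, 1 of 8 past the test), and their part in the value of Erbb3 was not tested. Erbb4 (ENSMUSG00000062209, chr1:68032186-69108059, minus strand) was close to absent, with about 13, 17 and 36 reads in controls and 15, 48 and 15 in mutants, or 0.0534 to 0.098 RPKM over all samples. Its groups overlapped, and the interval of the log2 fold change in a fit on all detected genes was -0.32 to 0.44.

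Since the receptors act in pairs, their mix within each sample was computed from the RPKM. The samples are bulk RNA, so the mix does not show which receptors share a cell. Erbb2 made up 60.6, 62 and 61.6% of the summed receptor RPKM in controls and 56, 52.3 and 52% in mutants. The Egfr share was 27.4 to 28.8% in controls and 30 to 32.8% in mutants, although its level was lower there. The ratio of Erbb2 to Egfr was 2.12, 2.16 and 2.25 in controls against 1.71, 1.64 and 1.73 in mutants. Every mutant lay below every control, and the exact two-sided permutation test gave p = 0.1, the smallest that 3 against 3 samples allow. The ratio of Erbb2 to Erbb3 had means of 6.14 ± 0.71 and 3.84 ± 1.16 (SD, n = 3), also without overlap (exact permutation p = 0.1), while that of Egfr to Erbb3 overlapped (2.83 ± 0.354 and 2.27 ± 0.675, exact permutation p = 0.3). The summed receptor level was 25.2 to 26.1 RPKM in controls and 20 to 20.4 RPKM in mutants.

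**Figure D3:**
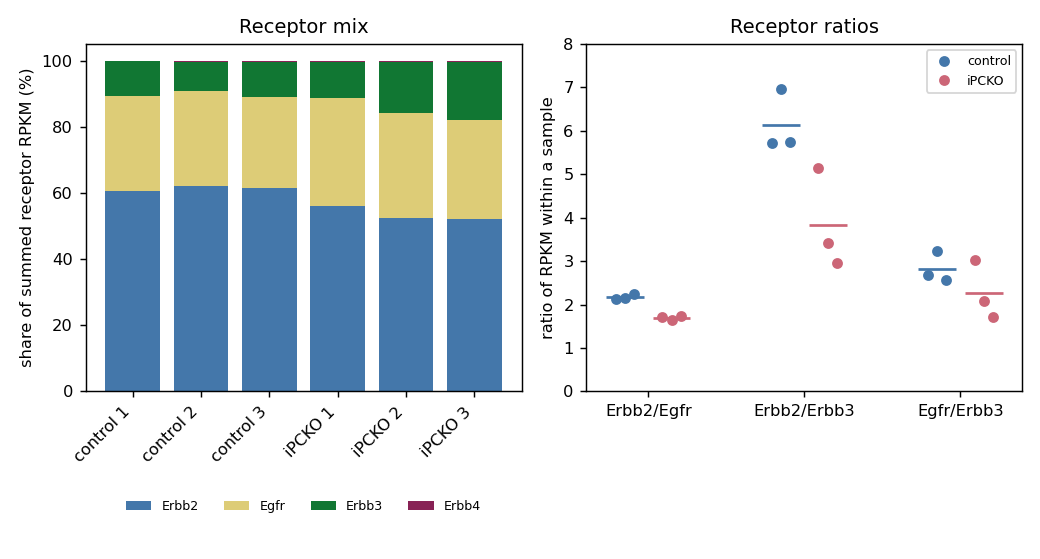
Left, share of each receptor in the summed RPKM of the 4 receptors for every sample (stacked bars from 0; Erbb4, at most 0.486%, is too thin to see); right, ratios of receptors within a sample, a point per sample and a bar at each group mean. The mean Erbb2 share is 61.4% in controls and 53.4% in mutants, and the 3 mutant points of Erbb2/Egfr (1.64 to 1.73) lie below the 3 control points (2.12 to 2.25).

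Among the ligands, Hbegf was by far the highest in every sample. Hbegf (ENSMUSG00000024486, chr18:36504927-36515805, minus strand), an EGFR ligand that responds quickly to many stimuli, had 47.1, 39.2 and 44.6 RPKM in controls and 65.9, 51.7 and 51.6 RPKM in mutants. It held 92.6 to 94.2% of the summed RPKM of the 6 ligands in controls and 93.6 to 96.4% in mutants. All mutants lay above all controls, with iPCKO 1 highest, and on average they had 129% of the control level. The log2 fold change of 0.36 (standard error 0.12, interval 0.08 to 0.64, adjusted p = 0.084, limma) did not pass, and adjusted p-values with 1 sample left out ran from 0.073 to 0.25. Leukocyte and neutrophil markers were lowest among the mutants in iPCKO 1, where Hbegf was highest, and their part in the value was not tested. As Hbegf is the main ligand and Egfr its receptor, their ratio was also computed, and it was 6.56, 5.23 and 6.45 in controls and 9.83, 8.04 and 8.59 in mutants (exact permutation p = 0.1, the smallest possible).

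Nrg1 (ENSMUSG00000062991, chr8:31814551-32884029, minus strand), which encodes neuregulin-1, had 0.844, 0.464 and 0.767 RPKM in controls and 1.08, 1.09 and 1.43 RPKM in mutants. The mutants lay above the controls, and their mean was 1.74 times the control mean. The log2 fold change of 0.74 was the largest positive one among the members, with a standard error of 0.25 and an adjusted p of 0.083 (limma), and it did not pass. It was 0.51 without control 2, the lowest control, and 1.2 with the presence of Y-linked transcripts as a covariate, without passing in either fit. With a pseudocount of 1 RPKM it was 0.38. The highest Nrg1 was in iPCKO 3, which also had the highest leukocyte and neutrophil markers, and their part in the value was not tested. Nrg1 has 18 annotated transcripts, and the single value per gene does not tell them apart. Nrg2 (ENSMUSG00000060275, chr18:36017652-36197380, minus strand), the related neuregulin-2, had 0.939, 0.707 and 0.683 RPKM in controls and 0.659, 0.63 and 0.888 RPKM in mutants, and the groups overlapped (interval of the log2 fold change -0.57 to 0.4 in the fit on all detected genes). Within each sample the ratio of Nrg1 to Nrg2 was 0.655 to 1.12 in controls and 1.62 to 1.73 in mutants (exact permutation p = 0.1).

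Areg (ENSMUSG00000029378, chr5:91139599-91148432, plus strand), which encodes amphiregulin, had 0.677, 1.24 and 0.841 RPKM in controls and 0.197, 0.4 and 0.585 RPKM in mutants. These values stand for about 16, 26 and 35 reads in controls and 5, 19 and 10 in mutants, from 1215 bases of exon. All mutants lay below all controls, but iPCKO 3 was close to control 1, and the mutants differed among themselves by 2.97 times. On average mutants had 42.8% of the control level. In the fit on all detected genes, in which 3.89% of genes were called, the log2 fold change was -1.09 (standard error 0.34, interval -1.88 to -0.3, adjusted p = 0.089, limma) and was not past the threshold. Leaving out 1 sample moved it between -1.37 and -0.76, and a pseudocount of 1 RPKM gave -0.46. Its promoter, printed above, held the 1 cyclic AMP response element among the 5 promoters searched and no GGAATG.

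Ereg (ENSMUSG00000029377, chr5:91074622-91093646, plus strand), the neighbour of Areg on chromosome 5, had 0.0736, 0.208 and 0.111 RPKM in controls and 0.126, 0.0976 and 0.153 RPKM in mutants, or about 6 to 16 reads per sample. The groups overlapped in full, and with so few reads the interval of the log2 fold change was -0.55 to 0.55 (limma, fit on all detected genes). Tgfa (ENSMUSG00000029999, chr6:86195223-86275719, plus strand) had 0.372, 0.515 and 0.498 RPKM in controls and 0.369, 0.519 and 0.464 RPKM in mutants. The groups overlapped almost entirely, and the interval of its log2 fold change was -0.5 to 0.44. None of the members under the filter was called in that fit, and 1 of them, Areg, had an unadjusted p below 0.05.

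The 5 remaining ligands of the family were all under the filter. Betacellulin (Btc), which binds EGFR and ERBB4, had 0.441, 0.658 and 0.471 RPKM in controls and 0.312, 0.351 and 0.293 RPKM in mutants. All its mutant values lay below the controls, with an adjusted p of 0.12 in the fit on all detected genes (log2 fold change -0.56, limma). Neuregulin-4 (Nrg4), a ligand of ERBB4, had 0.0668, 0.0378 and 0.114 RPKM in controls and 0.194, 0.187 and 0.208 RPKM in mutants, all above the controls (log2 fold change 0.8, adjusted p = 0.04, limma), which stands for 4 to 24 reads against 18 to 45 and did not pass. Egf itself was at 0.288 to 0.56 RPKM over all 6 samples with overlapping groups. Epgn had at most 6 reads and Nrg3 at most 2 reads in any sample.

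Around the receptors, 89 genes in 6 lists were read, of which 81 were tested and 7 called (6 higher and 1 lower). This share, 8.64%, is to be read against the 6.79% of all tested genes. None of 32 adaptors and kinases was called by limma (6 had an unadjusted p below 0.05, which 29.7% of all tested genes had), with a median log2 fold change of -0.04 against 0 over all tested genes. Among 12 genes for shedding and maturation the median was -0.05, 7 had an unadjusted p below 0.05 and 1, Bace2, a protease related to the Nrg1-cleaving BACE1, was called lower. Bace2 had 7.13, 5.76 and 5.35 RPKM in controls and 3.51, 3.96 and 3.77 RPKM in mutants (log2 fold change -0.67, adjusted p = 0.0084, limma), and it kept its call in 0 of 6 fits with a sample left out, where its fold change was -0.76 to -0.55 and its adjusted p 0.015 to 0.027. The main sheddases, chosen after their values were seen, overlapped between groups, with 11.3 and 10.6 RPKM for Adam17 and 28.7 and 29.6 RPKM for Adam10. Other sheddases were also chosen after their values were seen. Adam9 (-0.35, adjusted p = 0.031, limma) and Adam19 (-0.21, adjusted p = 0.13) lay below the controls without overlap. Adam15 (0.44, adjusted p = 0.045, limma) and Adam8 (1.38, adjusted p = 0.042) lay above them, and none was past the threshold. With the replicate block Adam8 was called (adjusted p = 0.0083, limma) and Bace2 was not. Bace2 was also not called in the fit on all detected genes or without the intensity trend. Adam8 had 0.591, 0.841 and 0.876 RPKM in controls and 1.1, 2.36 and 3.72 RPKM in mutants. It thus passed the filter through the mutants alone. Adam8 was highest in iPCKO 3, as were leukocyte and neutrophil markers, and their part in its value was not tested.

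None of the 13 receptor inhibitors and turnover genes was called by limma (5 had an unadjusted p below 0.05, median log2 fold change -0.12). The lowest adjusted p was that of Errfi1, also chosen after its values were seen, which encodes the EGFR feedback inhibitor MIG6. Errfi1 had 24.5, 26.2 and 30.3 RPKM in controls and 17.1, 21.3 and 18.4 RPKM in mutants, below the controls without overlap (log2 fold change -0.51, adjusted p = 0.019, limma). Of 18 genes of ERK output and feedback 17 were tested and 3 were called, all higher, with a median of 0.35 and 12 at an unadjusted p below 0.05. The shares over all tested genes were 4.11% called higher and 29.7% at such a p. Dusp5, a nuclear phosphatase of ERK, had 29.4, 22.4 and 23.8 RPKM in controls and 77.2, 58.4 and 55.4 RPKM in mutants (log2 fold change 1.33, standard error 0.15, adjusted p = 0.00076, limma), and kept its call in all 6 fits with a sample left out. Etv4, an ETS factor induced by receptor tyrosine kinases, rose from 15, 11.3 and 11.5 RPKM to 23.1, 22.4 and 22.5 RPKM (log2 fold change 0.85, adjusted p = 0.0019, limma), and lost its call without control 3 (adjusted p = 0.011). Plaur, the urokinase receptor, rose from 5.42, 7.44 and 6.32 RPKM to 9.78, 11.1 and 14.6 RPKM (0.87, adjusted p = 0.009, limma) but kept its call in 1 of the 6 such fits, with adjusted p-values of up to 0.036. It also lost its call in the fit on all detected genes, with median-ratio scaling, with quantile normalization and without the intensity trend. Plaur is also made by leukocytes, whose markers moved in the same direction, and it was highest in iPCKO 3, and their part in its value was not tested. Of the 18 genes 9 lay above the controls without overlap and 3 below, against 16.1% above and 14.2% below over all detected genes. Among genes past the filter 35.5% did not overlap, in either direction. Of the 9, Fosl1 was under the filter, at 0.123 RPKM or less.

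Of 9 partners and co-receptors 7 were tested and 3 called, all higher, with a median of 0.27 and 4 at an unadjusted p below 0.05. Over all tested genes 4.11% were called higher and 29.7% had such a p. Cd9, a tetraspanin that binds the precursor of HB-EGF, had 10.7, 10.4 and 9.53 RPKM in controls and 16.5, 21.2 and 20.6 RPKM in mutants (log2 fold change 0.91, adjusted p = 0.0012, limma). Cd82, another tetraspanin, had 3.95, 4.58 and 3.42 RPKM in controls and 6.85, 7.96 and 8.75 RPKM in mutants (0.96, adjusted p = 0.0022). Gpc1, a heparan sulphate proteoglycan of the cell surface, had 21.8, 17.6 and 15.5 RPKM in controls and 38, 34.5 and 34.5 RPKM in mutants (0.97, adjusted p = 0.0015). Cd9 and Gpc1 kept their calls whichever sample was left out, and Cd82 in 3 of 6 fits, losing its call without control 1, control 3 or iPCKO 2 (adjusted p up to 0.012). Cd9 and Cd82 are also carried by platelets and leukocytes, and platelet markers were higher in mutants (summed level 12.7 to 14.4 against 33.5 to 77.9 RPKM, 6 of 7 past the test). Their part in these values was not tested. Of the platelet markers, Gp9 (0.566 to 0.675 RPKM in controls) and Treml1 (0.254 to 0.529 RPKM in controls) passed the filter through the mutants alone. Both were named after their values were seen. With the presence of Y-linked transcripts as a covariate none of the 7 genes passed, with adjusted p-values of 0.011 for Dusp5 to 0.19 for Plaur. That fit sets the mutants against control 2 alone. The log2 fold changes of the 7 genes in it were 1.49 for Dusp5, 1.01 for Gpc1, 1 for Etv4 and 0.88 for Cd9. They were 0.76 for Cd82, 0.64 for Plaur and -0.61 for Bace2. As the groups of these 7 genes did not overlap, their direction in this fit was fixed in advance.

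**Figure D4:**
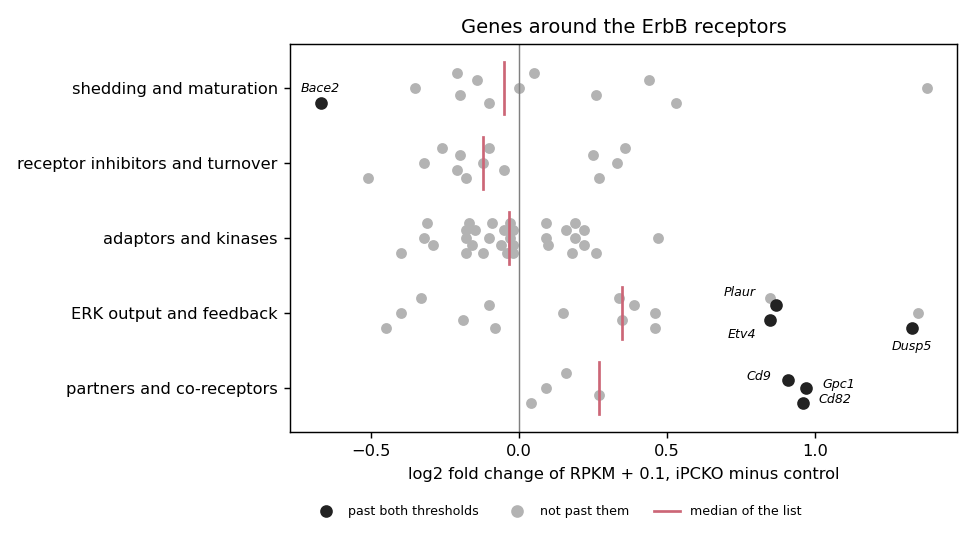
Log2 fold change of RPKM + 0.1 (iPCKO minus control) of the tested genes in 5 lists around the ErbB receptors, a point per gene, black and named where called, with a red bar at the median of each list; the list of further ligands is absent because none of its 5 genes was tested. The adaptors and kinases lie around 0 (median -0.04). The called genes Dusp5, Etv4, Plaur, Cd9, Cd82 and Gpc1 lie to the right, from 0.85 to 1.33. The called gene Bace2 lies to the left, at -0.67.

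The genes whose pattern over the 6 samples was most like that of Erbb2 were Otud1 (Pearson r of log2 values 0.9986), Samd12 (0.9969) and Col8a1 (0.9952). Otud1 had 35.3, 39.2 and 38.1 RPKM in controls and 19.3, 15.8 and 15.2 RPKM in mutants. In each of the 3 genes, as in Erbb2, control 2 was highest and iPCKO 3 lowest. The 6 points share the split into control and mutant, 366 of 12033 other genes reached r of 0.95, and the likeness is given as a description only.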

How the data were processed

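RNA on HA-tagged ribosomes was measured in 6 lungs, 3 per group. The authors mapped paired reads of stranded total RNA libraries to mm10 (GRCm38) with TopHat, counted them with HTSeq 0.6.1 and deposited RPKM per Ensembl gene. Their exon lengths and strand setting are not given in the sources used here. Symbols and coordinates came from GENCODE on the same assembly (21452 of 21603 genes matched). Values were analysed as log2(RPKM + 0.1) in limma 3.58.1 (R 4.3.3; eBayes with an intensity trend, Benjamini-Hochberg adjustment over 12034 genes that reached 1 RPKM in 3 or more samples), and fold changes on this scale understate those of low genes. Thresholds follow the study's methods. Genes under the filter were read from a fit on all 17678 detected genes. Single values were compared by exact two-sided permutation over samples. Lungs are not stated to come from separate litters, so limma p-values set group differences against the spread between these samples only. The fit was checked on simulated data.

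Depth was read from the steps of 1 read in low RPKM of genes with 1 annotated transcript, of which 75.2 to 77.8% lay within 0.02 of a whole read, so read numbers are approximate. Members and gene lists were chosen with earlier results of these data known. Named genes are the members, the other ligands, the deleted and driver genes, the called genes of each list (at most 4 per direction) and the 3 genes most like Erbb2, and any other is said to have been chosen after its values were seen. Deviations from the group means correlated at 0.24, 0.09 and 0.02 between samples of the same replicate number, which were not taken as pairs. Alternatives were the replicate block, other filters, pseudocounts, scalings and thresholds, sample weights, no trend and leaving out each sample. Y-linked transcripts as a covariate were added after seeing the data. Tables and figures were made in Python 3.11.15.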

Additional observations from a re-analysis of the deposited data

How the results depend on the processing

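The count of members called, 1 (Erbb2), fell to 0 with a pseudocount of 1 RPKM (log2 fold change -0.5, at the limit), with a log2 fold change limit of 1 and with the presence of Y-linked transcripts as a covariate. Leaving out 1 sample gave between 0 and 1 members, between 382 and 899 genes over the whole table and between 3 and 8 pathway genes. The count of all genes, 817, was 1590 with sample weights, 1313 at an adjusted p below 0.05, 411 at a log2 fold change above 1 and 124 with the Y-linked covariate. The count of pathway genes, 7, was 11 with sample weights, 1 at a log2 fold change above 1 and 0 with the Y-linked covariate. With the Y-linked covariate each fold change sets the mutants against control 2, the 1 Y-negative control, so those counts rest on that sample. The cause of the other shifts was not tested. With the replicate block, 1 member, 922 genes and 7 pathway genes passed, with Adam8 gained and Bace2 lost among the latter, and the samples share only a number. Adam8 passed the filter through the mutants alone. None of the 5 tested members changed sign in any setting run, whereas the differences of Ereg, Tgfa, Nrg2 and Erbb4, which lay near 0, took either sign as samples were left out. Of the members under the filter, Areg moved by more than the spread between replicates with a pseudocount of 1 RPKM, to -0.46. Members of about 20 reads or fewer in some samples (Areg, Ereg, Erbb4) are limited by depth. Quantile normalization gave 53.4% of calls as higher, against 60.6% in the fit reported.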
